A study of Mus musculus with 12 samples.

Results

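The 41 genes described here encode the machinery of DNA replication, the kinases and inhibitors that control entry into S phase, and proteins of mitosis. They were chosen by gene symbol and make up 41 of the 23863 genes of the expression table. By role, 9 belong to the replicative helicase and its licensing, 8 to DNA synthesis, clamp loading and repair, 4 to nucleotide supply, 7 to G1 and S phase control and 13 to mitosis. Sequencing covered bone marrow-derived macrophages (BMDM) of C57BL/6 mice aged 6 to 8 weeks, either *Mirc11-/-* or wildtype, where *Mirc11-/-* mice lack a microRNA cluster from which miR-24-2, miR-27a and miR-23a are made. Marrow was cultured for 7 days with L929 conditioned medium as a source of M-CSF, replated overnight and then polarized for 24 h. M1 cultures received LPS at 100 ng/ml with interferon gamma, given as 50 ng/ml in the protocol and as 10 ng/ml in the treatment field, and M2 cultures received IL-4 and IL-13 at 20 ng/ml each. The 4 groups, *Mirc11-/-* M1, wildtype M1, *Mirc11-/-* M2 and wildtype M2, hold 3 libraries each, and the deleted cluster is absent in both *Mirc11-/-* groups. No group was left unpolarized. A gene said to fall or rise in M1 is therefore lower or higher than in M2, and neither is measured against a baseline.

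Before S phase, ORC, CDC6 and CDT1 load the MCM2 to MCM7 ring on DNA, and cyclin-dependent kinases then fire it. PCNA is the sliding clamp that holds DNA polymerases, RFC loads it, and ribonucleotide reductase supplies deoxynucleotides. The cyclin D and cyclin E kinases release E2F factors from the retinoblastoma protein. The inhibitor p21 restrains those kinases, p18 restrains the cyclin D kinases alone, and cyclin B with CDK1 drives mitosis. Macrophages divide in response to M-CSF, while LPS and interferon gamma are known to stop their cycle. IL-4 is known to support proliferation of tissue macrophages in mice, which are not the marrow-derived cells used here.

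Promoters of S phase genes are known to carry E2F sites, and those of many mitosis genes a cell cycle homology region, CHR, together with CCAAT boxes. RefSeq windows on GRCm38.p6, running from 250 bases before to 50 bases after an annotated start, were found for 34 of the 41 genes, 40 windows in all. They are shown because most replication genes and most mitosis genes were lower in M1 than in M2, while the groups differed in these letters. *Mcm3*, *Mcm5* and *Cdt1* are the replication genes that passed a test between genotypes, *Cdt1* in M1 and the others in M2. The calls on *Mcm3* and *Mcm5* were lost in 11 and 14 of 19 alternative fits. *Cdk1*, *Ccnb2* and *Plk1* stand for mitosis. Capitals mark the E2F letters TTTCCCGC, TTTGGCGC, TTTCGCGC or TTTGCCGC in the replication genes and the CHR letters TTTGAA or TTCGAA in the mitosis genes, on either strand. In *Mcm5* a pair of overlapping matches gives a single run of capitals.
Mcm3, chr1:20820263-20820562, minus strand: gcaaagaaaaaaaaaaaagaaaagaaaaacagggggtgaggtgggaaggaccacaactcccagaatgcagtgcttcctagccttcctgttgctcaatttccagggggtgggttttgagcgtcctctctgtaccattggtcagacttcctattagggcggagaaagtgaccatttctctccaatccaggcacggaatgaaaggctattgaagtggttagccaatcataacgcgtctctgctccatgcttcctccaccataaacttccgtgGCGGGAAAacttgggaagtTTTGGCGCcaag
Mcm5, chr8:75109259-75109558, plus strand: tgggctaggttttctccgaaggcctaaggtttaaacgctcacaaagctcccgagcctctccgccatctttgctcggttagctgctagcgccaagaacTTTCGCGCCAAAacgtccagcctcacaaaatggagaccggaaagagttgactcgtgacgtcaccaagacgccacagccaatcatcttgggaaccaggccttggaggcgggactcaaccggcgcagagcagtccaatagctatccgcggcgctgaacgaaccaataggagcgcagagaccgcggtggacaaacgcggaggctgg
Cdt1, chr8:122567765-122568064, plus strand: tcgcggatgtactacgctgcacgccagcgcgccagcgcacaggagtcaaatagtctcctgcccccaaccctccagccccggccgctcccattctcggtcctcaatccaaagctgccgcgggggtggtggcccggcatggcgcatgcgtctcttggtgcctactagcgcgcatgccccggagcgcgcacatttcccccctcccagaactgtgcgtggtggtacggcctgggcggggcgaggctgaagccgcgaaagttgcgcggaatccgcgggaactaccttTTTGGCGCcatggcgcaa
Cdk1, chr10:69352863-69353162, minus strand: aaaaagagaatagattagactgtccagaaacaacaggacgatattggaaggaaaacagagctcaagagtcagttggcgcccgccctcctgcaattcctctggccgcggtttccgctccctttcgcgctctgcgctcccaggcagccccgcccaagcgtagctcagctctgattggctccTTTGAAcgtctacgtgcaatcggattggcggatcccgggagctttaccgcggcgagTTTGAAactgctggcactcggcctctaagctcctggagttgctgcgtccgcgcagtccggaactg
Ccnb2, chr9:70421505-70421804, minus strand: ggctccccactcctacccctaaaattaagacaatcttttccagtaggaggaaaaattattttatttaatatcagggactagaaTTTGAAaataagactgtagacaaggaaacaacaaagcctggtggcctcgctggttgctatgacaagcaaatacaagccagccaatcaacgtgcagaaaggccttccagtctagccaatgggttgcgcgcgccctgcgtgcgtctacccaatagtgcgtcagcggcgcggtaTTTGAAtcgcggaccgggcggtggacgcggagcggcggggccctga
Plk1, chr7:122159185-122159484, plus strand: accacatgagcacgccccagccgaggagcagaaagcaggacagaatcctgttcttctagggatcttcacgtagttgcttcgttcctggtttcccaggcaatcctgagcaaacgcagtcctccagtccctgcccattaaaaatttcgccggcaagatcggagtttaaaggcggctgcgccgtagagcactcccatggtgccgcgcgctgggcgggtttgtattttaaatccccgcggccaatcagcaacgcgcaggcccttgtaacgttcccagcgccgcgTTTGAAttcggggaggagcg

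The E2F letters stood in 9 of 22 windows of replication genes (40.9%), in 1 of 10 windows of mitosis genes and in 2.26% of all 32851 windows. The CHR letters stood in 8 of 10 mitosis windows (80%), in 4 of 22 replication windows (18.2%) and in 19.2% of all windows. CCAAT, read on both strands, stood in 9 of 10 mitosis windows, in 11 of 22 replication windows and in 37.4% of all windows. *Cdk1* was the mitosis gene with E2F letters as well. *Rfc3* had E2F, CHR and CCAAT letters and *Bub1* had CHR and CCAAT letters, and both genes overlapped between polarizations, as given below. *Mcm7* had the same letters as *Rfc3*, and *Aurka*, *Ccnb2*, *Cdc20*, *Cdk1*, *Mki67*, *Plk1* and *Top2a* had CHR and CCAAT letters as *Bub1* did. In each genotype these genes were lower in every M1 library than in every M2 library. A match is a description of the letters and not a site shown to be bound. Whether the letters relate to the changes was not tested. *Pole*, *Gins2*, *Mcm4*, *Aurkb*, *Stmn1*, *Ccnd1* and *Ccna2* had no window.

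The title and the treatment field name opposite polarizations for 6 of the 12 libraries, Ako2273M1, Ako2273M2, Wt2261M1, Wt2261M2, Wt2262M1 and Wt2262M2, where Ako stands for *Mirc11-/-* and Wt for wildtype. Groups were taken from the titles, and values are given in the order of the title numbers. The M1 marker *Nos2*, which makes nitric oxide, ranged over 938 to 1630 FPKM where the title says M1 and over 0.802 to 2.26 FPKM where it says M2. *Mrc1*, the mannose receptor of M2 macrophages, lay between 0.123 and 0.403 FPKM in M1 libraries and between 230 and 301 FPKM in M2 libraries. The macrophage marker *Csf1r*, the M-CSF receptor, lay between 373 and 479 FPKM in M1 and between 676 and 813 FPKM in M2. Among the macrophage markers read, *Emr1*, *Itgam*, *Mertk*, *Cd14* and *Fcgr1* were higher in every M1 library than in every M2 library, as with *Emr1* at 1230 to 1340 FPKM in M1 and 650 to 840 FPKM in M2, and *Csf1r* and *Cd68* were lower. Genes above 0 numbered 14366 to 14708 in a library. Whether each library is a separate animal is not in the labels, so a p-value here reflects the spread among these libraries alone, which may be technical.

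Most of the 41 genes were lower in M1 than in M2 macrophages of either genotype. The mean over the 6 M2 libraries exceeded that over the 6 M1 libraries for 38 genes, and the exceptions were *Tyms*, *Ccne1* and *Cdkn1a*. FPKM count fragments relative to transcript length and library size, so levels can be compared between genes. *Cdkn1a* and *Pcna* were the most abundant members, while many mitosis genes lay below 1 FPKM in M1 libraries. Bulk RNA cannot tell fewer cycling cells from less RNA of these genes per cell.

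**Figure D1:**
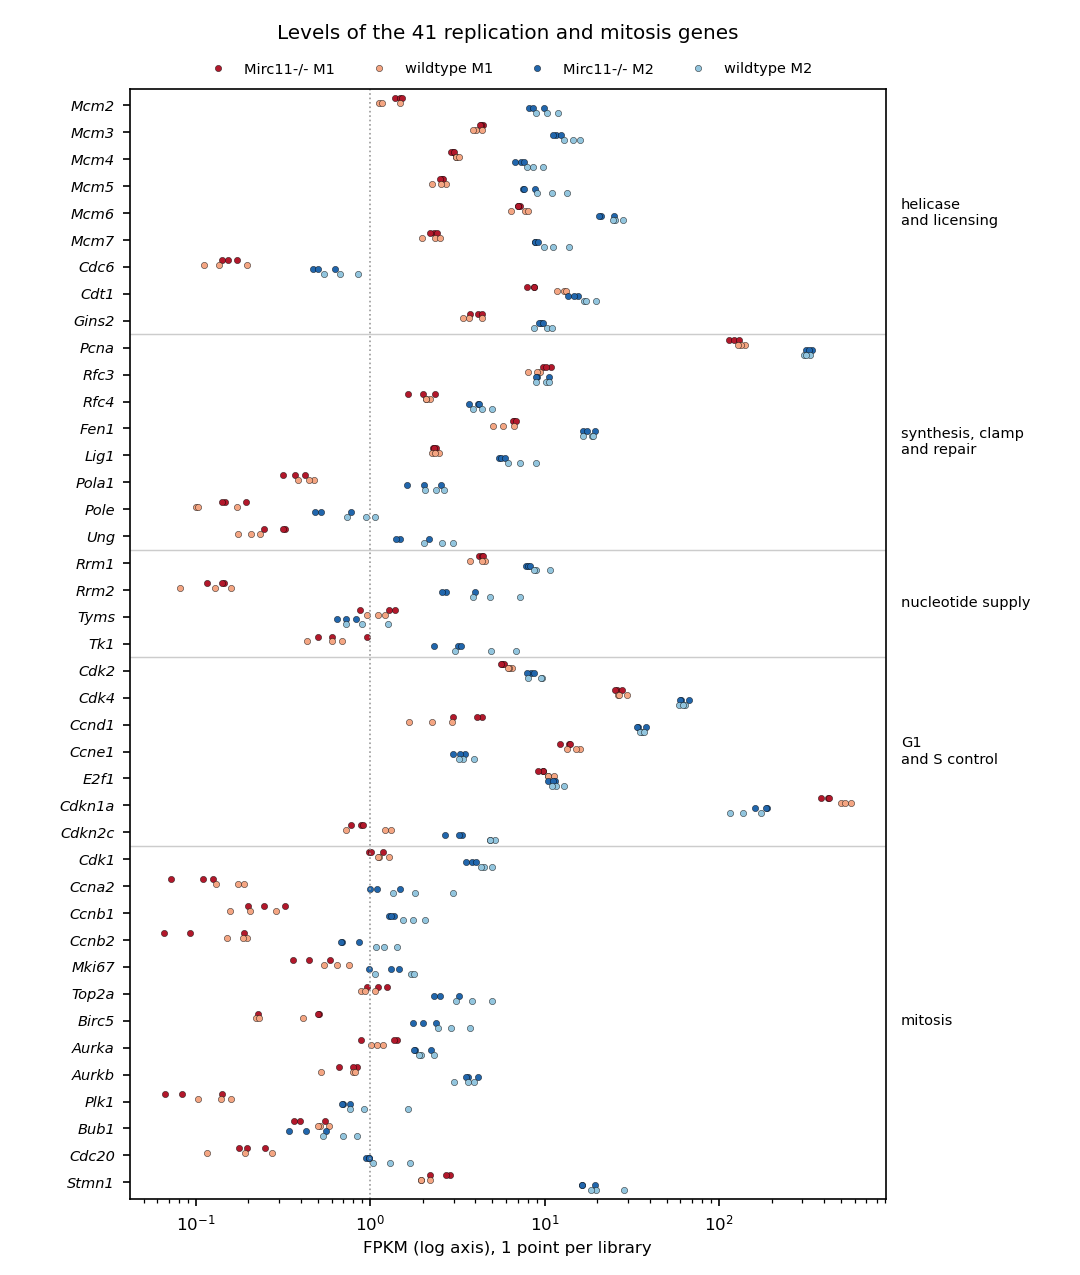
FPKM of the 41 genes on a log axis, with 1 point per library and genes grouped by role. The dotted line marks 1 FPKM. M1 points lie left of M2 points for most genes, and right of them for *Ccne1* and *Cdkn1a*.

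Tests used log2(FPKM + 1), which understates the change of weakly expressed genes, in 1 limma model across the 10137 genes with a mean of at least 1 FPKM, with adjusted p under 0.05 as the threshold. Of the 41 genes, 31 passed that filter, namely 18 of 21 replication genes, 7 of 7 control genes and 6 of 13 mitosis genes. *Pola1*, *Ung*, *Rrm2*, *Tk1*, *Cdkn2c*, *Birc5* and *Aurkb* passed it only through their M2 libraries, so that they had to differ. In *Mirc11-/-*, 28 of the 31 fell in M1 and 2 rose, while 54.0% of all genes tested fell and 26.0% rose. In wildtype, 27 fell and 2 rose, against 52.0% and 26.6% of all genes. These counts include the 7 genes. Of the 24 members with a mean of at least 1 FPKM in both polarizations, 21 fell and 2 rose in *Mirc11-/-*, beside 53.3% and 25.6% of the 9371 genes of that kind. In wildtype 20 of the 24 fell and 2 rose, beside 51.1% and 26.3%. The median change in M1 over the 24 was -1.05 in *Mirc11-/-* and -1.23 in wildtype, beside -0.20 and -0.17 over the 9371 genes. Without the filter, 36 of the 41 fell in *Mirc11-/-* and 35 in wildtype, beside 39.9% and 38.2% of 17189 genes. With median-of-ratios scaling, which centers the genes, 27 of the 31 fell in each genotype, and *E2f1* in *Mirc11-/-* was no longer among them. With that scaling 3840 of all 10137 genes fell in *Mirc11-/-* and 3804 in wildtype. The 27 still include the 7 genes that passed the filter only through M2.

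**Figure D2:**
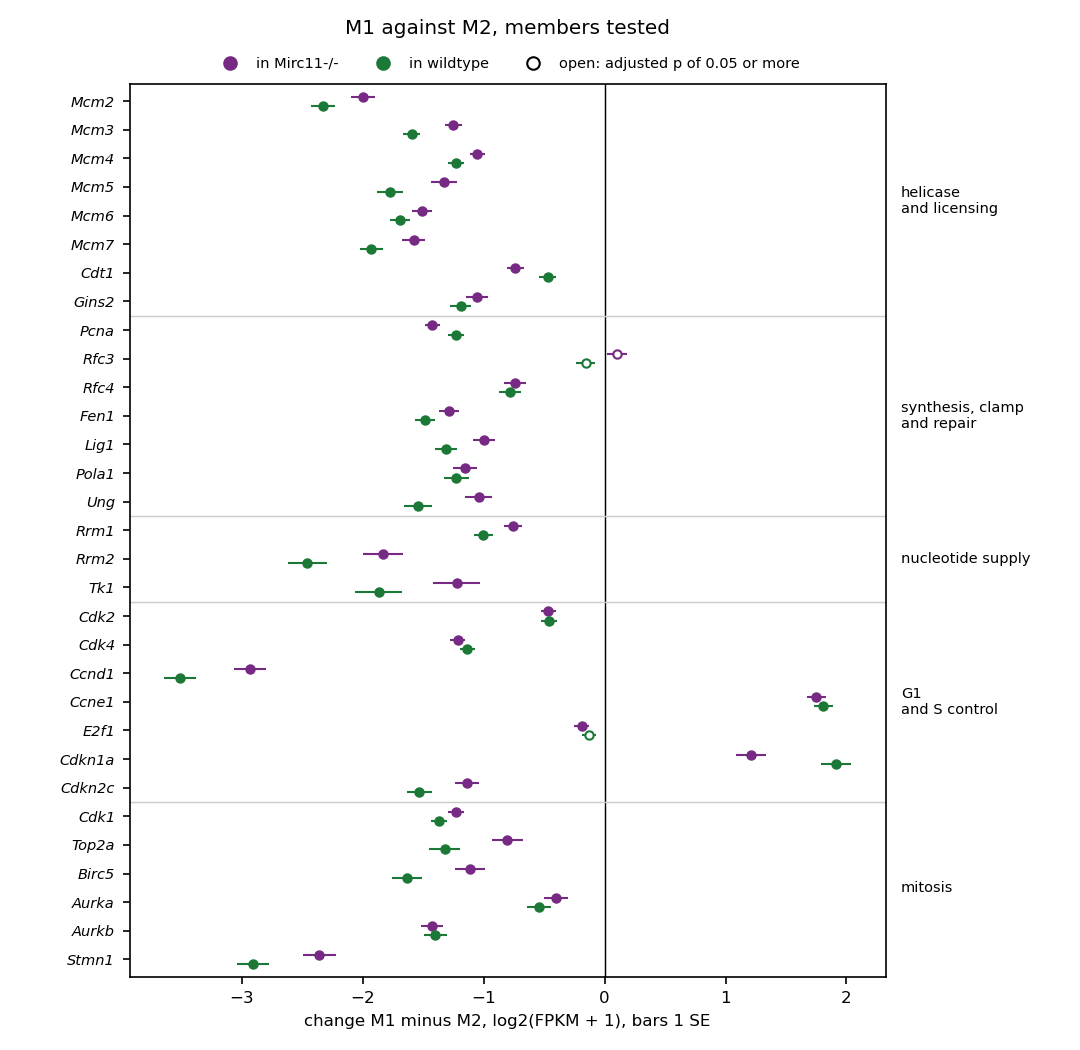
Change in M1 against M2 for the 31 members tested, on the log2(FPKM + 1) scale with bars of 1 SE, in *Mirc11-/-* and in wildtype. Open symbols did not pass the threshold. *Ccne1* and *Cdkn1a* lie right of 0, *Rfc3* and *E2f1* near it, and the other genes left of it in both genotypes.

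All 8 tested genes of the helicase and licensing group fell in M1 in each genotype, with medians of -1.29 in *Mirc11-/-* and -1.65 in wildtype. *Mcm2*, a subunit of the replicative helicase, changed most. Its level was 1.38, 1.48 and 1.51 FPKM in *Mirc11-/-* M1 libraries, against 8.11, 8.60 and 9.85 FPKM in *Mirc11-/-* M2 libraries. In wildtype it was 1.12, 1.17 and 1.47 FPKM in M1, against 10.3, 11.9 and 8.90 FPKM in M2. The groups did not overlap, and the means were 6.07-fold lower in M1 in *Mirc11-/-* (log2 change -2.0 ± 0.10 SE) and 8.28-fold lower in wildtype (-2.33 ± 0.10). *Cdt1*, which brings the MCM ring to ORC, changed least. It averaged 8.38 ± 0.44 FPKM in *Mirc11-/-* M1 and 14.7 ± 0.93 FPKM in *Mirc11-/-* M2 libraries, and 12.6 ± 0.78 FPKM in the wildtype M1 and 17.9 ± 1.6 FPKM in the wildtype M2 libraries (SD, n = 3 each), changes of -0.74 and -0.47. Between these lay *Mcm3* to *Mcm7* and *Gins2*, a subunit of the GINS complex that joins the helicase, with 2.34-fold to 3.85-fold lower means in *Mirc11-/-* and 2.62-fold to 5.08-fold lower means in wildtype.

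Of the synthesis, clamp and repair genes, 6 of 7 tested fell in each genotype, or 4 of 5 without *Pola1* and *Ung*, which passed the filter through M2. *Pcna* held 114, 122 and 131 FPKM in *Mirc11-/-* M1 libraries, against 315, 343 and 328 FPKM in *Mirc11-/-* M2 libraries. Wildtype libraries held 142, 134 and 128 FPKM in M1, against 305, 331 and 314 FPKM in M2. The clamp fell 2.70-fold in M1 in *Mirc11-/-* (log2 change -1.43 ± 0.06 SE) and 2.35-fold in wildtype (-1.23 ± 0.06), and lay far above the helicase genes in every library. *Ung*, which removes uracil from DNA, had the largest log2 change of the group in wildtype (-1.54). It lay at 0.244, 0.323 and 0.314 FPKM in *Mirc11-/-* M1, 1.49, 1.40 and 2.18 FPKM in *Mirc11-/-* M2, 0.232, 0.208 and 0.174 FPKM in the wildtype M1 and 2.57, 2.98 and 2.04 FPKM in the wildtype M2 libraries. *Fen1* and *Lig1*, which process and seal Okazaki fragments, *Pola1* of the primase complex and *Rfc4* fell by 0.74 to 1.48 on the log2 scale.

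*Rfc3*, another subunit of the clamp loader, did not follow this pattern. It lay at 9.84, 10.8 and 10.2 FPKM in *Mirc11-/-* M1 libraries, against 9.06, 10.6 and 8.93 FPKM in *Mirc11-/-* M2 libraries. In wildtype the values were 9.34, 7.97 and 9.0 FPKM in M1, against 8.93, 10.2 and 10.5 FPKM in M2, and the groups overlapped. Its changes were 0.10 in *Mirc11-/-* (limma adjusted p = 0.254) and -0.16 in wildtype (adjusted p = 0.0877). With median-of-ratios scaling the *Mirc11-/-* change was 0.35 and passed (adjusted p = 0.00182).

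Of the nucleotide supply genes, *Rrm1* reached 1 FPKM in both polarizations and fell in both genotypes, as did *Rrm2* and *Tk1*, which passed the filter through M2. *Rrm2*, the small subunit of ribonucleotide reductase whose level is known to follow S phase, lay at 0.116, 0.145 and 0.142 FPKM in *Mirc11-/-* M1 libraries, against 2.73, 2.56 and 3.98 FPKM in *Mirc11-/-* M2 libraries. In wildtype it lay at 0.160, 0.128 and 0.0807 FPKM in M1, against 4.84, 7.24 and 3.88 FPKM in M2. The ratio of means was 23.1-fold in *Mirc11-/-* and 43.3-fold in wildtype, the highest of the 41 genes. *Rrm1*, the large subunit, was 1.85-fold lower in M1 in *Mirc11-/-* (4.18, 4.38 and 4.44 FPKM, against 7.83, 7.98 and 8.22 FPKM in M2). In wildtype it was 2.24-fold lower (4.57, 3.72 and 4.35 FPKM in M1, against 8.93, 10.7 and 8.72 FPKM in M2). *Tk1*, the thymidine kinase of S phase, was 4.28-fold lower in *Mirc11-/-* and 8.59-fold lower in wildtype. *Tyms*, thymidylate synthase, lay at 1.39, 0.867 and 1.27 FPKM in *Mirc11-/-* M1 libraries, above the 0.726, 0.648 and 0.824 FPKM in *Mirc11-/-* M2 libraries. Its wildtype groups overlapped (1.11, 0.957 and 1.21 FPKM in M1, against 0.899, 1.26 and 0.724 FPKM in M2), and its mean kept it out of the tests.

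The G1 and S phase control genes moved in opposite directions. *Ccnd1*, cyclin D1, a cyclin that M-CSF is known to induce, lay at 2.98, 4.36 and 4.08 FPKM in *Mirc11-/-* M1 libraries, against 34.4, 33.6 and 38.0 FPKM in *Mirc11-/-* M2 libraries. In wildtype it lay at 2.26, 1.66 and 2.95 FPKM in M1, against 36.1, 35 and 37.2 FPKM in M2. This was the largest log2 fall among the members tested (-2.93 ± 0.13 SE in *Mirc11-/-* and -3.51 ± 0.13 in wildtype). *Ccne1*, cyclin E1, rose 1.75 ± 0.08 in *Mirc11-/-* and 1.81 ± 0.08 in wildtype. It lay at 12.2, 13.8 and 13.9 FPKM in *Mirc11-/-* M1, 3.0, 3.48 and 3.27 FPKM in *Mirc11-/-* M2, 16, 13.4 and 15 FPKM in the wildtype M1 and 3.38, 3.93 and 3.24 FPKM in the wildtype M2 libraries. *Cdkn1a*, encoding the kinase inhibitor p21, rose 1.21 ± 0.12 in *Mirc11-/-* and 1.92 ± 0.12 in wildtype.

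*Cdk4*, the partner of cyclin D, fell by 1.22 in *Mirc11-/-* and by 1.14 in wildtype, and *Cdk2*, the partner of cyclin E, by 0.47 and 0.46. *Cdkn2c*, encoding the CDK4 inhibitor p18, fell by 1.14 and 1.53. *E2f1*, the transcription factor of S phase entry, was nearly level. It lay at 9.72, 9.72 and 9.20 FPKM in *Mirc11-/-* M1, 10.5, 11.5 and 11.1 FPKM in *Mirc11-/-* M2, 11.3, 10.5 and 10.4 FPKM in the wildtype M1 and 11.6, 12.9 and 11 FPKM in the wildtype M2 libraries. Its change was -0.19 in *Mirc11-/-* (adjusted p = 0.0110), turning to 0.06 with median-of-ratios scaling and to 0.03 with quantile normalization, and -0.13 in wildtype (adjusted p = 0.0635).

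All 6 tested mitosis genes fell in M1. Of these, *Cdk1*, *Top2a*, *Aurka* and *Stmn1* reached 1 FPKM in both polarizations, with medians of -1.02 in *Mirc11-/-* and -1.35 in wildtype. *Stmn1*, stathmin, which binds tubulin, changed most. It lay at 2.88, 2.21 and 2.70 FPKM in *Mirc11-/-* M1 libraries, against 16.4, 16.4 and 19.4 FPKM in *Mirc11-/-* M2 libraries. In wildtype it lay at 1.94, 2.19 and 1.94 FPKM in M1, against 19.6, 28.4 and 18.4 FPKM in M2. The means were 6.72-fold lower in M1 in *Mirc11-/-* and 10.9-fold lower in wildtype. *Aurka*, the spindle pole kinase, changed least, with 0.889, 1.43 and 1.37 FPKM in *Mirc11-/-* M1, 1.79, 1.78 and 2.23 FPKM in *Mirc11-/-* M2, 1.18, 1.01 and 1.10 FPKM in the wildtype M1 and 1.95, 2.31 and 1.91 FPKM in the wildtype M2 libraries. Its fall of 0.40 in *Mirc11-/-* was -0.11 and did not pass with quantile normalization. *Cdk1*, *Top2a*, which untangles chromosomes, *Birc5* and *Aurkb* of the chromosomal passenger complex fell 2.44-fold to 4.97-fold in *Mirc11-/-* and 3.95-fold to 10.5-fold in wildtype, as ratios of means.

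The other 7 mitosis genes and *Cdc6*, *Pole* and *Tyms* had means under 1 FPKM. Of these 10 genes, *Ccna2*, *Ccnb1*, *Ccnb2*, *Mki67*, *Plk1*, *Cdc20*, *Cdc6* and *Pole* lay lower in every M1 library than in every M2 library of either genotype, as did 30.1% of all 23863 genes in *Mirc11-/-* and 29.6% in wildtype. *Ccna2*, cyclin A2, was 11.6-fold lower in M1 in *Mirc11-/-* and 12.5-fold lower in wildtype. *Mki67*, the proliferation marker Ki-67, lay at 0.586, 0.446 and 0.361 FPKM in *Mirc11-/-* M1, 1.32, 0.989 and 1.46 FPKM in *Mirc11-/-* M2, 0.539, 0.757 and 0.645 FPKM in the wildtype M1 and 1.71, 1.78 and 1.07 FPKM in the wildtype M2 libraries. *Bub1*, a spindle checkpoint kinase, overlapped, with 0.547, 0.396 and 0.366 FPKM in *Mirc11-/-* M1, 0.429, 0.342 and 0.554 FPKM in *Mirc11-/-* M2, 0.582, 0.517 and 0.502 FPKM in the wildtype M1 and 0.701, 0.839 and 0.537 FPKM in the wildtype M2 libraries. In the fit without a filter, *Tyms* passed as higher in M1 in *Mirc11-/-* (0.32, adjusted p = 0.0303), and *Bub1* passed in neither genotype.

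Markers of other cells that could bring dividing cells were read beside these values. The 8 progenitor markers summed to 0.623 to 0.769 FPKM in *Mirc11-/-* M1, 1.25 to 1.49 FPKM in *Mirc11-/-* M2, 0.570 to 0.832 FPKM in the wildtype M1 and 1.69 to 1.80 FPKM in the wildtype M2 libraries. *Elane*, *Prtn3* and *Ctsg* were listed at 0 in every M1 library, and *Cd34* was the marker that reached a mean of 1 FPKM, in wildtype M2 alone. The 6 neutrophil markers in the table summed to 35.6 to 38.9 FPKM in *Mirc11-/-* M1, 5.73 to 8.58 FPKM in *Mirc11-/-* M2, 53.2 to 89.6 FPKM in the wildtype M1 and 5.21 to 12.8 FPKM in the wildtype M2 libraries. The higher progenitor sum in M2 came mainly from *Cd34*, while *Kit* lay at 0.443 to 0.702 FPKM in M1 and 0.113 to 0.229 FPKM in M2 libraries. The neutrophil sum was carried by *S100a8*, at 27.3 to 73.1 FPKM in M1 and 1.32 to 4.04 FPKM in M2 libraries. *Camp* was also higher in M1 (0.642 to 1.74 FPKM, against at most 0.0724 FPKM in M2). *Mmp8* was mostly higher in M1 (6.67 to 14.9 FPKM, against 3.48 to 6.71 FPKM in M2). *Ltf* and *Ngp* were higher in M2, at no more than 0.367 FPKM, and *S100a9* was higher in most M2 libraries, at up to 1.45 FPKM. Both sums move with polarization, and their part in the results was not tested.

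Other genes of the same processes were read beside the shares of all genes tested, 54.0% lower and 26.0% higher in *Mirc11-/-* and 52.0% and 26.6% in wildtype. Of 32 tested among 36 other replication genes, 25 fell and 3 rose in *Mirc11-/-*, and 26 fell and 4 rose in wildtype. *Dut*, which destroys dUTP, fell by 2.67 and 2.39, and *Pold1*, the catalytic subunit of polymerase delta, fell by 0.86 and 1.06. Of 19 tested among 40 other mitosis genes, 16 fell and 3 rose in *Mirc11-/-*, and 17 fell and 2 rose in wildtype. *Cdc25b*, a phosphatase that activates CDK1, fell by 1.94 and 1.81 and *Cenpa*, the centromeric histone, by 2.11 and 1.65. These counts include genes such as *Cdc45* and *Pole2* that passed the filter only through M2, so that they had to differ. Without the filter, 29 of the 36 other replication genes fell in *Mirc11-/-* and 30 in wildtype, and 3 and 4 rose. Of the 40 other mitosis genes, 36 and 38 fell and 3 and 2 rose. Of all 17189 genes in that fit, 39.9% and 38.2% fell. Of 21 tested among 25 other regulators, 11 fell and 7 rose in *Mirc11-/-*, and 10 fell and 8 rose in wildtype, shares near those of all genes. *Myc*, a growth factor-induced activator of the cycle, fell by 3.56 and 3.92.

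*Ccnd2*, cyclin D2, went against *Ccnd1*. It lay at 27.9, 27.8 and 22.5 FPKM in *Mirc11-/-* M1 libraries, against 0.795, 0.915 and 1.19 FPKM in *Mirc11-/-* M2 libraries. In wildtype it lay at 21.5, 14.6 and 22.5 FPKM in M1, against 0.496, 0.307 and 0.660 FPKM in M2. The rise was 3.78 ± 0.15 in *Mirc11-/-* and 3.77 ± 0.15 in wildtype (SE, log2 scale).

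Between genotypes in M1, the replication and mitosis genes differed little. Of the 31 tested, *Cdt1* fell and *Ccnd1* rose in *Mirc11-/-*, while 7.96% of all genes tested fell and 5.99% rose. *Cdt1* lay at 7.87, 8.63 and 8.63 FPKM in *Mirc11-/-* M1 libraries, against 12.9, 11.7 and 13.2 FPKM in wildtype M1 libraries. The change was -0.54 ± 0.07 SE (adjusted p = 0.000655), and it passed in all 19 alternatives run, with adjusted p between 0.000400 and 0.0323. *Ccnd1* lay at 2.98, 4.36 and 4.08 FPKM in *Mirc11-/-* M1 libraries, against 2.26, 1.66 and 2.95 FPKM in wildtype M1 libraries, a change of 0.55 ± 0.13 SE (adjusted p = 0.0168). The groups did not overlap, but the lowest *Mirc11-/-* library stood beside the highest wildtype library, and the call ended without library Ako2272M1, Ako2273M1 or Wt2261M1, in a fit to the M1 libraries and in the 6 libraries whose labels match (adjusted p up to 0.142).

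The median change over the 31 members in M1 was 0.02, with 17 estimates above 0 and 14 below. Every *Mirc11-/-* M1 library lay below every wildtype M1 library for 5 of the 31 (18.8% of all genes tested), and above for 4 (12.7%). *Cdkn1a* was among the 5, with 384, 424 and 426 FPKM in *Mirc11-/-* M1 libraries, against 573, 498 and 529 FPKM in wildtype M1 libraries (-0.37 ± 0.12 SE, adjusted p = 0.0681). It passed in the fit to the M1 libraries (-0.37), in the 6 libraries whose labels match (-0.50), with quantile normalization (-0.46) and without library Wt2261M2 or Wt2262M2 (-0.37).

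**Figure D3:**
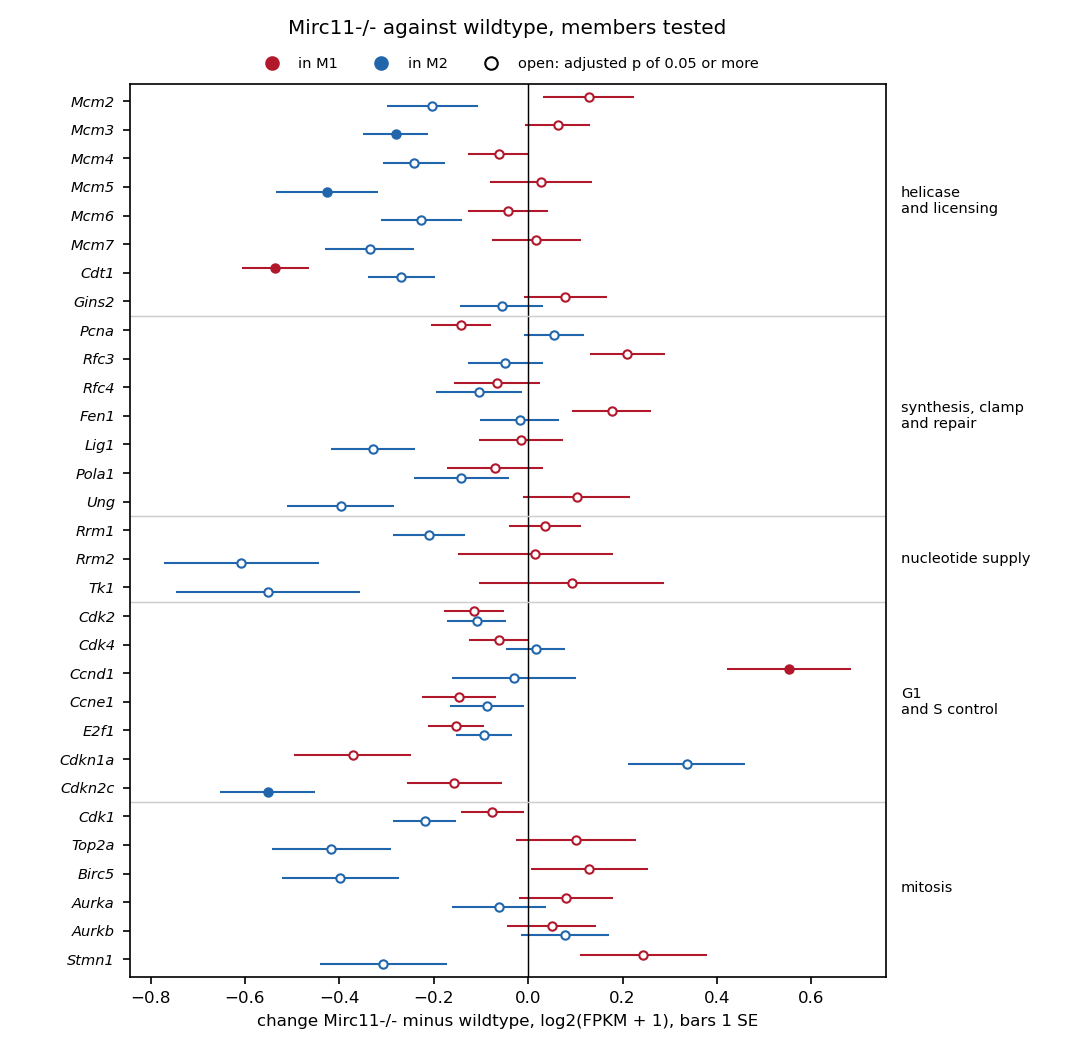
Change in *Mirc11-/-* against wildtype for the 31 members tested, on the log2(FPKM + 1) scale with bars of 1 SE, in M1 and in M2. Filled symbols passed the threshold. In M1 the genes scatter around 0, and in M2 27 of the 31 lie below it.

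In M2, most replication and mitosis genes had lower estimates in *Mirc11-/-*, and few passed. Of the 31 tested, *Mcm3*, *Mcm5* and *Cdkn2c* fell and none rose, while 2.09% of all genes tested fell and 2.50% rose. *Cdkn2c* lay at 3.37, 3.21 and 2.69 FPKM in *Mirc11-/-* M2 libraries, against 4.89, 5.18 and 4.88 FPKM in wildtype M2 libraries (-0.55 ± 0.10 SE, adjusted p = 0.00905). *Mcm3* lay at 11.6, 11.2 and 12.4 FPKM in *Mirc11-/-* M2 libraries, against 14.5, 16 and 13 FPKM in wildtype M2 libraries (-0.28 ± 0.07, adjusted p = 0.0407). *Mcm5* lay at 7.54, 7.60 and 8.74 FPKM in *Mirc11-/-* M2 libraries, against 11, 13.5 and 9.02 FPKM in wildtype M2 libraries (-0.43 ± 0.11, adjusted p = 0.0456). None of the 3 genes overlapped between genotypes, and for *Mcm3* and *Mcm5* the nearest wildtype library was Wt2262M2. The call on *Cdkn2c* held in 18 of 19 alternatives and ended in the 6 libraries whose labels match. The calls on *Mcm3* and *Mcm5* ended in 11 and 14 of 19 alternatives, with adjusted p up to 0.161 and 0.151, and these included the 6 libraries. That fit has a lone wildtype M2 library. Its estimates were -0.46 for *Cdkn2c*, -0.33 for *Mcm3* and -0.48 for *Mcm5*. For *Rrm2* and *Ung* they were -0.68 and -0.55, beside -0.61 and -0.40 in the main fit.

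**Figure D4:**
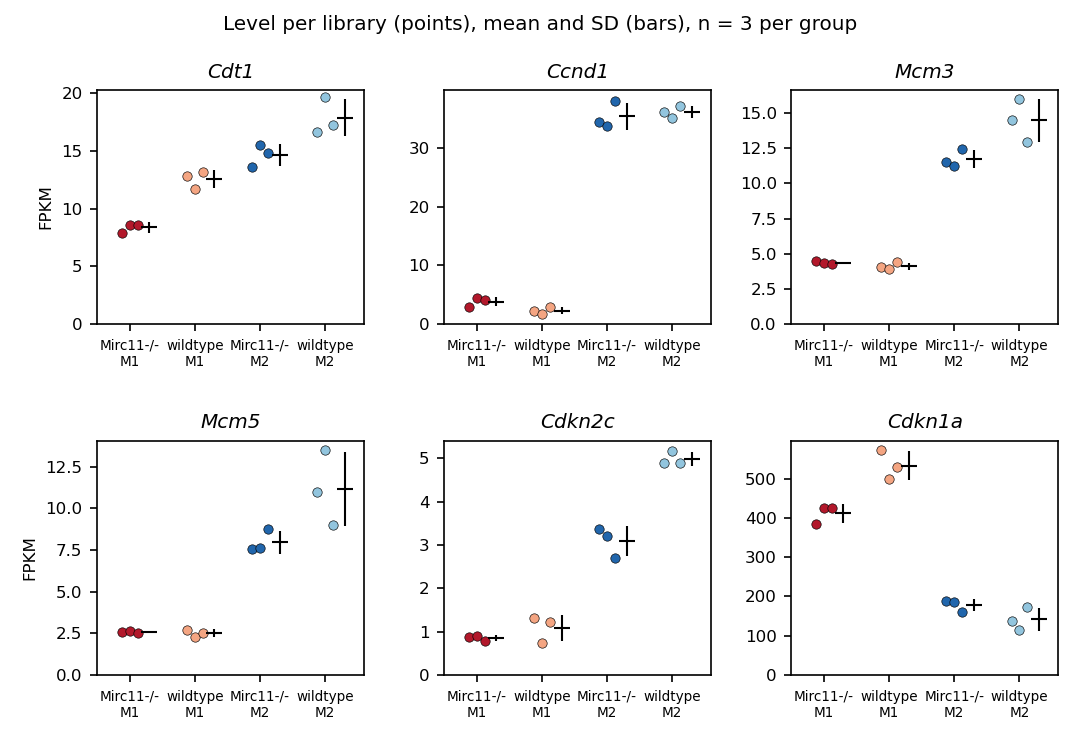
FPKM per library of the 5 members with a genotype call and of *Cdkn1a*, with the mean and SD beside each group of 3 libraries. *Cdt1*, *Ccnd1* and *Cdkn1a* separate the genotypes in M1, and *Mcm3*, *Mcm5*, *Cdkn2c* and *Cdt1* separate them in M2.

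The median change over the 31 members in M2 was -0.21, beside 0.0043 over all genes tested. Estimates were below 0 for 27 of the 31, against 4901 of 10137 genes. Every *Mirc11-/-* M2 library lay below every wildtype M2 library for 10 of the 31 (11.8% of all genes tested), and above for none (11.9%). The 10 were *Mcm3*, *Mcm4*, *Mcm5*, *Mcm7*, *Cdt1*, *Lig1*, *Rrm1*, *Cdkn2c*, *Cdk1* and *Birc5*. *Ccnb1*, *Ccnb2*, *Plk1* and *Cdc20*, not tested, were separated in the same way. With these, 14 of the 41 members were separated as lower and 0 as higher. Of all 23863 genes of the table, 1532 were separated as lower and 1700 as higher. *Ccnb2* passed in the limma fit without a filter (-0.36, adjusted p = 0.0169). The exceptions with estimates above 0 were *Pcna*, *Cdk4*, *Cdkn1a* and *Aurkb*, from 0.02 to 0.34. *Cdt1*, called in M1, had an estimate of -0.27 ± 0.07 SE in M2 (limma adjusted p = 0.0528). It passed in M2 with quantile normalization (-0.29) and without library Wt2261M1 (-0.27). The limma test of the difference between its M1 and M2 changes did not pass (adjusted p = 0.234).

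The wildtype M2 libraries were not alike in these genes. Library Wt2261M2 was the highest of the 3 for 35 of the 41 genes and library Wt2262M2 the lowest for 35, whereas over all genes tested these shares were 31.8% and 32.4%. *Rrm2* shows the spread, with 4.84 FPKM in Wt2260M2, 7.24 FPKM in Wt2261M2 and 3.88 FPKM in Wt2262M2, the last below Ako2273M2 at 3.98 FPKM. The *Mirc11-/-* M2 libraries were not alike either. Library Ako2273M2 was the highest of its group for 25 of the 41 genes and for 16 of the 21 replication genes. Over all genes tested that share was 31.9%. Without Wt2262M2, 12 of the 31 members passed in M2, of which 11 fell in *Mirc11-/-*, among them *Rrm2* (-0.78), *Tk1* (-0.80), *Mcm7* (-0.44), *Top2a* (-0.55) and *Birc5* (-0.50). In that fit 212 of all 10137 genes tested fell and 261 rose. Without Wt2261M2 only *Cdkn2c* passed (-0.53), and likewise without Wt2260M2 (-0.56), Ako2271M2, Ako2272M2, Wt2260M1 or any single *Mirc11-/-* M1 library. Without Ako2273M2, 5 passed, all of them lower, beside 156 of 10137 genes lower and 240 higher. In a fit to the M2 libraries 1 passed, *Cdkn2c*, and with quantile normalization 5 passed, all lower. Over all genes tested, 119 fell and 154 rose in the fit to the M2 libraries, and 288 fell and 296 rose with quantile normalization.

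Library Wt2261M2 was also the highest M2 library for the neutrophil granule genes *Ngp* (0.367 FPKM, against 0.0273 to 0.213 FPKM in the other M2 libraries) and *Ltf* (0.205 FPKM, against 0.0131 to 0.115 FPKM), at levels far below those of macrophage genes. The same library was highest for *S100a8* (4.04 FPKM, against 1.32 to 2.1 FPKM) and *S100a9* (1.45 FPKM, against at most 0.724 FPKM). It was highest for *Mmp8* as well (6.71 FPKM, against 3.48 to 6.03 FPKM). *Camp* was highest in Ako2273M2 (0.0724 FPKM, against 0.0662 FPKM in Wt2261M2). *Cd34* lay between 0.891 and 1.13 FPKM in *Mirc11-/-* M2 libraries and between 1.21 and 1.37 FPKM in wildtype M2 libraries. The other 7 progenitor markers overlapped between genotypes in M2, as with *Kit* at 0.113 to 0.225 FPKM in *Mirc11-/-* and 0.137 to 0.229 FPKM in wildtype libraries. The part of such cells in the genotype difference was not tested.

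**Figure D5:**
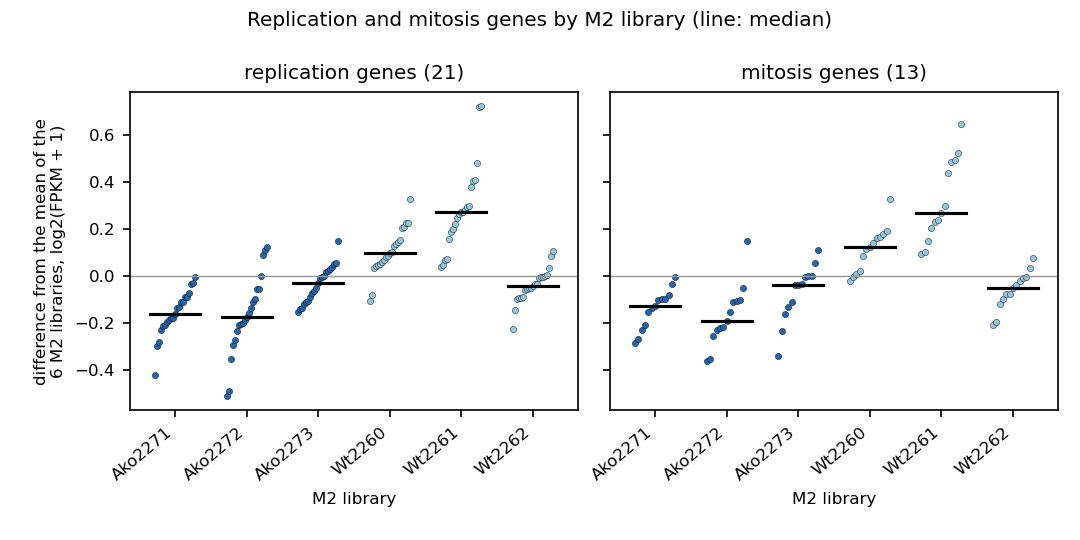
Difference of each M2 library from the mean of the 6 M2 libraries, on the log2(FPKM + 1) scale, with 1 point per gene for 21 replication and 13 mitosis genes and a line at the median. The medians of Wt2261M2 lie highest in both panels, and those of Wt2262M2 lie near those of Ako2273M2.

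The deleted cluster is on chromosome 8, as are *Cdt1*, *Mcm5* and *Gins2*, the last of which passed in neither polarization. Of 531 tested genes assigned to chromosome 8, 22% passed between genotypes in M1 and 13% in M2, against 13.5% and 4.11% of 9048 genes on other chromosomes. An effect of the deleted cluster and one of neighboring DNA carried along with the deletion cannot be told apart in these groups.

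The genotype effects in M1 and M2 were then compared with each other. No member passed the limma test of that difference, while 0.937% of all genes passed as higher and 0.917% as lower, and 17 of the 31 members had an unadjusted p under 0.05, against 1443 of 10137 genes. *Cdkn1a* came nearest, with a difference of -0.71 ± 0.17 SE (adjusted p = 0.0669). It lay at 187, 186 and 160.0 FPKM in *Mirc11-/-* M2 libraries, against 138, 116 and 174 FPKM in wildtype M2 libraries, an overlap, and lower in *Mirc11-/-* in M1 as given above. *Cdkn1a* passed with quantile normalization (-0.78) and in the 6 libraries whose labels match (-0.94). Without Wt2262M2, *Cdkn1a* (-0.86), *Mcm3* (0.42) and *Mcm5* (0.58) passed, and without Wt2262M1, *Ccnd1* (0.72) passed.

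Some of the other genes of these processes passed between genotypes. In M1, *Tpx2*, a spindle assembly factor, rose by 0.69 ± 0.11 SE in *Mirc11-/-* (adjusted p = 0.00242), and *Cks1b*, a small CDK-binding protein, rose by 0.55 ± 0.13. *Tpx2* lay at 2.96, 3.37 and 2.60 FPKM in *Mirc11-/-* M1 libraries, against 1.71, 1.15 and 1.55 FPKM in wildtype M1 libraries. *E2f8*, an atypical E2F that represses E2F target genes, rose by 0.53 ± 0.08 in M1 (adjusted p = 0.00142), with 1.44, 1.55 and 1.17 FPKM in *Mirc11-/-* M1 libraries, against 0.636, 0.582 and 0.742 FPKM in wildtype M1 libraries. In M2, *Orc6*, a subunit of the origin recognition complex, fell by 0.35 ± 0.07 (adjusted p = 0.0150), *Pole2* of polymerase epsilon fell by 0.28 ± 0.07 and *Mad2l1*, a spindle checkpoint protein, by 0.35 ± 0.09. Of 19 alternatives, *Tpx2* and *E2f8* passed in all 19, *Cks1b* in 15, *Orc6* in 14, *Mad2l1* in 5 and *Pole2* in 4. The remaining M1 calls were *Pold2* (0.30), kept in 16 of 19, *Pole2* (-0.25) in 12, *Pole4* (0.18) in 6 and *Cdc25b* (-0.22) in 4. Of 32 tested other replication genes, 2 rose and 1 fell in M1 and 2 fell in M2. Of 19 other mitosis genes, 2 rose and 1 fell in M1 and 1 fell in M2. Of 21 other regulators, 1 rose in M1 and none passed in M2, where 6 had an unadjusted p under 0.05. Over all genes tested, 5.99% rose and 7.96% fell in M1, and 2.50% rose and 2.09% fell in M2.

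Because *Cdkn1a* is a target of p53, the tumor suppressor that halts the cycle on DNA damage, 14 of its target genes were read as well. In M1, 4 rose and 1 fell in *Mirc11-/-*, beside 5.99% and 7.96% of all genes tested, and in M2, 3 rose and none fell, beside 2.50% and 2.09%. Of the 4 in M1, *Btg2* and *Sesn2* each passed in 12 of 19 alternatives, and 2 rose in the fit without a filter. In M2, *Sesn2*, a stress-induced inhibitor of mTORC1, rose by 0.74 ± 0.06 SE (adjusted p = 5.91e-05), with 12.3, 12.3 and 10.9 FPKM in *Mirc11-/-* libraries, against 6.71, 6.11 and 7.29 FPKM in wildtype libraries. *Ccng1*, cyclin G1, rose by 0.54 ± 0.07 (adjusted p = 0.00119), with 58.2, 57.8 and 59.2 FPKM in *Mirc11-/-* M2 libraries, against 39.3, 38.2 and 42.5 FPKM in wildtype M2 libraries. *Zmat3*, an RNA-binding protein, rose by 0.43 ± 0.08 (adjusted p = 0.00989). In M1, *Plk2*, a polo-like kinase, rose by 0.53 ± 0.07 and *Gadd45a*, a growth arrest gene, by 0.50 ± 0.11, while *Trp53inp1*, a p53 cofactor, fell by 0.45 ± 0.08.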

How the data were processed

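The libraries were made from total RNA with the NEBNext Ultra II kit. The deposited values are FPKM per gene, which, per the submitters' processing notes, the authors made with STAR 2.5.1, Cufflinks and the mm9 build. The roles of the tools, the annotation and the strand setting are not given in the sources used here. The authors also deposited tables of their own fold changes and p-values, which were not used. FPKM do not give read counts, so depth is unknown, and no interval that needs it is given.

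Groups came from the titles. FPKM were transformed as log2(FPKM + 1), and 10137 of 23863 genes, those with a mean of at least 1 FPKM over 12 libraries, were fitted with limma 3.58.1 in R 4.3.3 (group means, trended moderated variances, two-sided). Benjamini-Hochberg adjustment ran over all genes within each of 5 comparisons. Alternatives were a pseudocount of 0.1, no filter, median-of-ratios scaling, quantile normalization, fits to the groups compared or to the 6 libraries whose labels match, a replicate block, and each library left out in turn. The fit was tested on simulated data.

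All 41 members are accounted for. Values per library are given for members called between genotypes, for the largest and smallest change of each role group and for genes against their group, and up to 4 genes per list and comparison with the smallest p come from 4 further lists. A few others were chosen after their values were seen. The members and lists were chosen with earlier results of these data known. Chromosomes and promoters come from RefSeq on GRCm38.p6, another build than that of the files, so positions are given for promoter windows alone, on that build.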

Additional observations from a re-analysis of the deposited data

Results flagged for a closer look

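The effects of genotype in M1 and in M2 differed, by limma's test of the difference between them (adjusted p below 0.05), for 6 of the genes reported, none of them among the 41. For *Tpx2* the difference was 0.86 (adjusted p = 0.0191), with a change of 0.69 in M1 and -0.17 in M2, and for *E2f8* it was 0.58 (adjusted p = 0.0223), with 0.53 in M1 and -0.05 in M2. The other 4 are p53 target genes. The difference was -0.62 for *Ccng1* (adjusted p = 0.0102; -0.09 in M1 and 0.54 in M2), -0.51 for *Sesn2* (adjusted p = 0.0154; 0.23 in M1 and 0.74 in M2), -0.68 for *Trp53inp1* (adjusted p = 0.0103; -0.45 in M1 and 0.23 in M2) and -0.58 for *Zmat3* (adjusted p = 0.0221; -0.16 in M1 and 0.43 in M2). Each of the 6 was lost in the 6 libraries whose labels match, and *Tpx2* and *E2f8* also with a replicate block. *Ccng1*, *Sesn2* and *Trp53inp1* passed in the other 17 of 18 alternatives, *Tpx2* in 14, *Zmat3* in 11 and *E2f8* in 9.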

How the results depend on the processing

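In M1 against M2, 28 of the 30 members called in *Mirc11-/-* and 28 of 29 in wildtype kept their call in all 19 alternatives. The exceptions were *E2f1* and *Aurka* in *Mirc11-/-* and *Aurka* in wildtype. *E2f1* in *Mirc11-/-* turned to 0.056 with median-of-ratios scaling and to 0.031 with quantile normalization. The number of members called between genotypes in M1 was 2, and 4 with quantile normalization. In M2 it was 3, with 5 under quantile normalization and 1 in a fit to the groups compared. For the difference it was 0, with 1 under quantile normalization and 1 in the 6 libraries whose labels match. Leaving out each library in turn gave 30 calls throughout in M1 against M2 in *Mirc11-/-* and 29 to 30 in wildtype, 1 to 3 between genotypes in M1, 1 to 12 in M2 and 0 to 3 for the difference. Where a lone wildtype library remained in an arm, it was assumed to vary like the other groups. The difference needs all 4 groups, so no fit to the groups compared was run for it.

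With the title number as a replicate block, 30 and 29 members passed in M1 against M2, 2 and 3 between genotypes and 0 in the difference, so no count changed. Deviations of same-numbered M1 and M2 libraries correlated at -0.291 to 0.0603 in *Mirc11-/-* and at -0.057 to 0.212 in wildtype, and what the number stands for is not in the labels. The cause of these changes was not tested.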

Other observations

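The collagen genes *Col1a1* and *Col1a2*, made by fibroblasts, were highest in the pair of *Mirc11-/-* libraries that share a title number. *Col1a1* lay at 0.496 FPKM in the M1 library Ako2273M1 and at 0.686 FPKM in the M2 library Ako2273M2, against at most 0.0245 FPKM in the other libraries. *Col1a2* lay at 0.436 and 0.547 FPKM in these libraries, against at most 0.0463 FPKM in the others. What that number stands for is not in the labels.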
